A study of Mus musculus with 6 samples.

Results

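The question here was whether brown (BAT) and white (WAT) mouse adipocytes changed the same genes between day 0, before induction, and day 6 of differentiation. For each gene the BAT change, day 6 minus day 0 on the log2(FPKM + 1) scale, was set against the WAT change, and the difference in response is the BAT change minus the WAT change. FPKM is the number of fragments per kilobase of exon, scaled to the mapped fragments of the library, and a pseudocount of 1 was added before the logarithm. Kept were the genes that reached an FPKM of 1 in any library of days 0 and 6, 14119 of the 34465 symbols and 37841 entries in the expression table, 12551 of them protein-coding. A gene was taken as moved in opposite directions if it was at least 2-fold higher in one depot and at least 2-fold lower in the other. It was taken as moved in one depot only if it changed at least 2-fold in one depot, by under 0.5 in log2 in the other, and the difference in response was at least 1 in log2.

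BAT preadipocytes came from the interscapular brown fat and WAT preadipocytes from the inguinal white fat of BL6 mice of weaning age, and both were grown to confluence as stromal vascular cells. Both were induced with the same medium of insulin, dexamethasone, 3-isobutyl-1-methylxanthine and rosiglitazone, so these agents lie between day 0 and the later days in either depot. Total RNA was sequenced on days 0, 4 and 6, with 1 library per condition and 6 in all. The cells are mixed primary cultures, the sources used here do not say whether the mice were pooled, and in such bulk RNA fewer cells of a type cannot be told apart from less RNA per cell.

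No condition has a replicate, so each difference is one between single libraries, no p-value is given and the words higher and lower describe these libraries alone. The 4 libraries hold an estimated 17.0 (BAT day 0), 19.9 (BAT day 6), 9.30 (WAT day 0) and 19.4 (WAT day 6) M fragments, so that an FPKM of 1 over 2000 bases rests on 16.7 fragments in WAT on day 0 and on 30.6 to 35.8 in the other 3. General adipocyte markers were high on days 4 and 6 in both depots and do not tell brown from white. *Adipoq*, the adipokine adiponectin, had an FPKM of 59.0, 823 and 1174 in BAT and 123, 934 and 889 in WAT on days 0, 4 and 6, and *Fabp4*, which carries fatty acids in adipocytes, stood at 297 and 26709 for BAT days 0 and 6, with 1052 and 22119 for WAT. *Ucp1*, which uncouples respiration in brown fat, was listed at 0 in BAT on day 0 and had only 9.92 and 3.65 on days 4 and 6, against 1.49, 0.48 and 0.17 in WAT. *Cidea*, a lipid droplet protein of brown fat, was also listed at 0 in BAT on day 0, against 2.43 in WAT.

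Preadipocytes leave the cell cycle, take down a fibroblast-like matrix and build lipid droplets as they differentiate, and brown cells also add mitochondria and uncoupled respiration. Both depots run the same PPARG-driven programme. Opposite movement is defined here by values alone and does not place a gene outside that programme. Type I interferon acts through a complex of factors that binds an interferon-stimulated response element near the start of their target genes. Satellite DNA is a tandem repeat that packs the chromatin around centromeres and is mostly kept silent.

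Sequences of 3 kinds are shown, for loci and genes described further on. The first is the satellite repeat that led the genes higher in BAT and lower in WAT. At each of these mm9 windows (*Gm10800* at chr2:98507293-98507377 on the minus strand, *Gm10718* at chr9:3023628-3023712 and *Gm10721* at chr9:3013221-3013305 on the plus strand) the capitals mark a run of 25 bases that 13 of 14 such loci share.
Gm10800: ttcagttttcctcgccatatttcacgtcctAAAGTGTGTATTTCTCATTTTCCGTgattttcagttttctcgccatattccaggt
Gm10718: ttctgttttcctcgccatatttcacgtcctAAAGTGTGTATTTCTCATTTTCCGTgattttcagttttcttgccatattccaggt
Gm10721: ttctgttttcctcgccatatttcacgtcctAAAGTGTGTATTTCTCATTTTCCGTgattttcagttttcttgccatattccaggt

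The second is another repeated sequence, shown for *Gm17386* (chr1:96049555-96049639), *Gm17385* (chr7:130757100-130757184) and *Gm17316* (chr8:103734495-103734579), all on the plus strand of mm9. The capitals mark 25 bases held by 8 of 9 protein-coding loci of that kind. These 25 bases alone do not tell those loci apart, and whether longer reads could be placed was not tested.
Gm17386: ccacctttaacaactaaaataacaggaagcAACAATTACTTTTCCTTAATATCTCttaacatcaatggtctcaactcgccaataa
Gm17385: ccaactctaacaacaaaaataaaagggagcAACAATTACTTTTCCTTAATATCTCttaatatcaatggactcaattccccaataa
Gm17316: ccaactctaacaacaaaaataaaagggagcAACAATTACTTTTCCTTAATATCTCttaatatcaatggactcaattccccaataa

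The third is the promoter of interferon genes that were lower in BAT and higher in WAT. The RefSeq windows (build GRCm38.p6, 250 bases before to 50 after the start) of *Ifit1* at chr19:34640639-34640938 and *Ifit3* at chr19:34583279-34583578 lie on the plus strand, and that of *Ddx58* at chr4:40239776-40240075 on the minus strand. The capitals mark the response element searched for, GAAANNGAAA on either strand.
Ifit1: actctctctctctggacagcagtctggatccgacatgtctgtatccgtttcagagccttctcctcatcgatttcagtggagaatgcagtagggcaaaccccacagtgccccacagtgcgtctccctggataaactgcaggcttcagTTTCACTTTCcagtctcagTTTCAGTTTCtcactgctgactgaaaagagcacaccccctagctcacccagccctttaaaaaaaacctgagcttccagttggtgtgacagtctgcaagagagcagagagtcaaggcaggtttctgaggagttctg
Ifit3: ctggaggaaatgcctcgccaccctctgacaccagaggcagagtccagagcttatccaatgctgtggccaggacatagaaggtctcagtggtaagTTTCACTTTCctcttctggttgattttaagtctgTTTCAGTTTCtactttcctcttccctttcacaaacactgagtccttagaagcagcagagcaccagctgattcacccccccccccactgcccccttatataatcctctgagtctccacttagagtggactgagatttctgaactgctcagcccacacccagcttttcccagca
Ddx58: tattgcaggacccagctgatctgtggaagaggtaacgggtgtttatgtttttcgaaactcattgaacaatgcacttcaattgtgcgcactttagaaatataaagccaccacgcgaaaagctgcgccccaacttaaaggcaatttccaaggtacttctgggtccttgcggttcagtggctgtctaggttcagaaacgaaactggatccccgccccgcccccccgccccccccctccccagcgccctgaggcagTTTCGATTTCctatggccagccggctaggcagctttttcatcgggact

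Opposite movement was rare. Only 79 genes (0.56% of those tested) were higher in BAT and lower in WAT, and 182 genes (1.29%) were lower in BAT and higher in WAT. Movement in one depot only was more frequent: 365 genes (2.59%) were higher and 1280 (9.07%) lower in BAT alone, and 508 (3.60%) were higher and 430 (3.05%) lower in WAT alone. Together these were 261 genes in opposite directions (1.85%), 1645 in BAT alone (11.7%) and 938 in WAT alone (6.64%). Of the genes tested, 11275 fell in none of these classes. At the edge of the rule, *Tmem37* was just inside with a BAT change of 1.04 and a WAT change of -1.0, and *Rplp2*, a ribosomal stalk protein, just outside with 1.55 and -0.997. On the other side *Slc25a36*, a mitochondrial carrier, was just inside with -1.14 and 1.0, and *Atp6v1a*, a subunit of the lysosomal proton pump, just outside with -0.998 and 1.11.

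**Figure D1:**
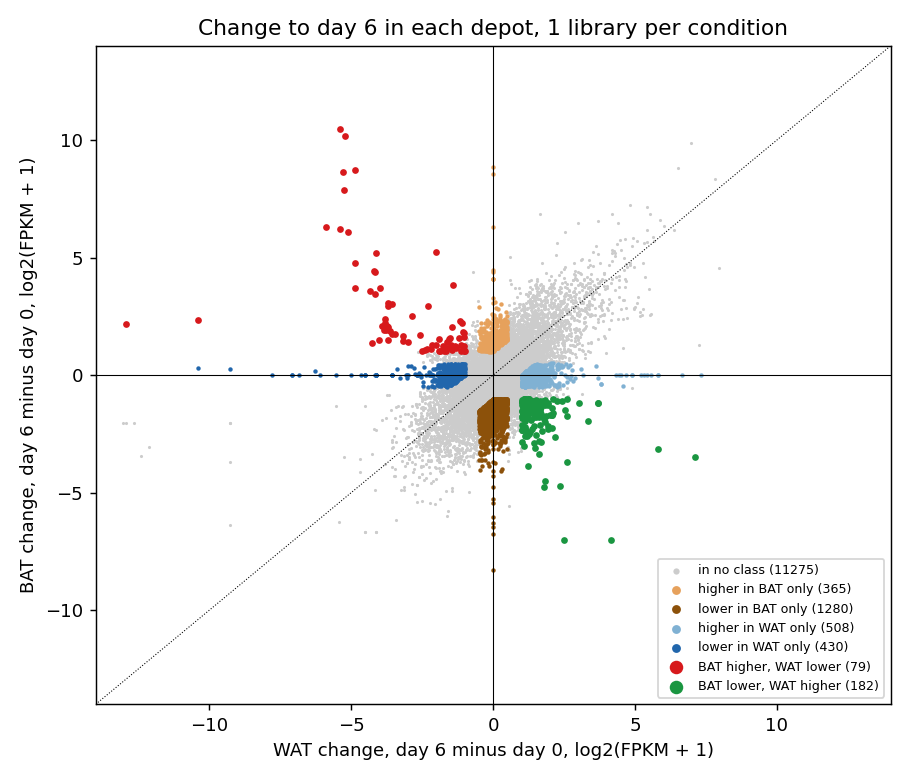
Change from day 0 to day 6 in BAT (vertical axis) against WAT (horizontal axis) on the log2(FPKM + 1) scale, 1 point per gene for the 14119 genes tested, coloured by class, with a dotted line where both changes are equal. The 79 red and 182 green points are those that moved in opposite directions.

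The balance between the classes depends on how the libraries are scaled. The median of all genes was -0.24 for the BAT change and 0.10 for the WAT change, hence -0.35 for the difference in response. That median was -0.99 after scaling to TPM and 0.02 after median-ratio scaling. With median-ratio scaling 680 genes were higher and 775 lower in BAT alone, and with TPM 139 and 2509. In WAT alone the same scalings gave 330 higher and 551 lower, and 654 higher and 284 lower. Gene list medians below are as measured and are therefore to be read against the -0.35 of all genes. Where a median is called relative to all genes, the median of all genes has been subtracted. Counts of list genes with a difference in response of at least 1 or at most -1 are read against 13.2% and 27.9% of all genes.

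The difference in response equals BAT minus WAT on day 6 less BAT minus WAT on day 0, and for most of these genes the day 0 term was the larger. Of the 5804 genes (41.1%) with a difference in response of at least 1 in size, 4173 were apart by 2-fold or more on day 0 and 585 on day 6. In 3390 of them (58.4%) BAT and WAT were apart on day 0 and within 0.5 in log2 of each other on day 6, and in 257 (4.43%) the reverse was seen. Over all tested genes BAT was at least 2-fold higher than WAT for 21.2% and lower for 13.2% on day 0, for 3.08% and 2.66% on day 4 and for 1.83% and 4.17% on day 6. The median BAT minus WAT of all tested genes was 0.23 on day 0, 0.13 on day 4 and -0.09 on day 6. Counts of list genes above or below WAT, given further on, are to be read against these medians. The day 4 libraries had no part in the rule, and on that day 3840 of the 5804 genes (66.2%) were within 0.5 of each other, against 71.5% of all genes tested.

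The depots differed on day 0 in ways that followed gene length and a few abundant RNAs. Over the 12551 protein-coding genes, the Spearman correlation with the length of the longest transcript was 0.52 for BAT minus WAT on day 0, 0.26 on day 4 and -0.06 on day 6, and -0.47 for the difference in response. The BAT change went with length (-0.43) and the WAT change hardly did (-0.03). These are descriptions across genes of the same libraries, and genes are not replicates. From the shortest to the longest of 10 equal bins of genes, with median lengths of 844.5 and 7622 bases, the median difference in response went from 0.88 to -1.14 and BAT minus WAT on day 0 from -0.94 to 1.02. Genes lower in BAT alone had a median length of 4436 bases and genes higher in BAT alone 1148, against 2797 for all genes tested.

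**Figure D2:**
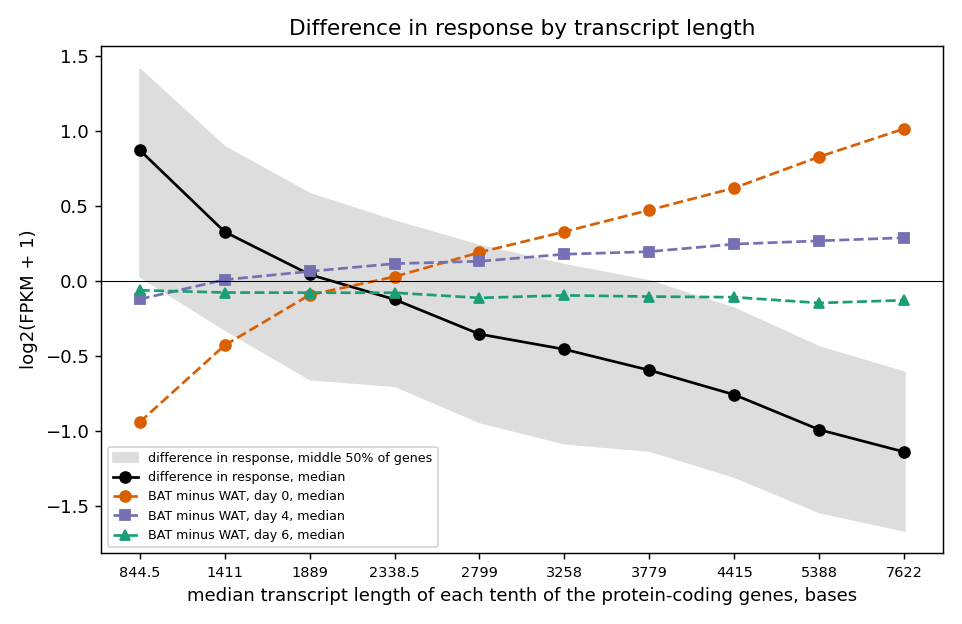
Median log2(FPKM + 1) differences in 10 equal bins of the protein-coding genes, ordered by transcript length (horizontal axis, bases), with the middle 50% of genes shaded for the difference in response. The black line goes from 0.88 to -1.14 and the day 0 line from -0.94 to 1.02, while the day 6 line stays close to 0.

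Messages of cytosolic ribosomal proteins made up 28.3% of the FPKM sum in WAT on day 0, against 13.6% in BAT on day 0 and 8.94% to 13.9% in the later libraries. For RNAs of the mitochondrial genome the share was 2.84% (BAT) and 4.71% (WAT) on day 0, and 15.3% and 14.1% on day 6. With the trend of each depot's change with length removed, 47 of the 79 and 133 of the 182 genes stayed in their opposite class, 121 of 365 and 731 of 1280 stayed higher or lower in BAT alone, and 257 of 508 and 112 of 430 in WAT alone. How much of each gene's difference the makeup of the day 0 libraries accounts for was not tested, and with 1 library per condition the depot and its day 0 library cannot be told apart.

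The genes higher in BAT and lower in WAT were led by satellite sequence. In the order of days 0, 4 and 6, *Gm10800* had an FPKM of 1.97, 5889 and 4258 in BAT and of 14499, 4108 and 342 in WAT, a difference in response of 15.89. It was near absent from BAT on day 0 alone and abundant in the other 5 libraries. *Gm10718* (0.041, 614 and 417 in BAT, 1380, 410 and 34.6 in WAT) and *Gm10721* (0.26, 432 and 292 in BAT, 928, 296 and 23.1 in WAT) gave 13.93 and 13.13. Both were likewise lowest in BAT on day 0 and highest in WAT on day 0. *Gm11167* had 0.12, 98.9 and 81.1 in BAT and 249, 86.0 and 4.95 in WAT, a difference of 11.59. A further locus of this kind, named after its values were seen, was *Gm16869* (15.38). *Gm10801*, also named after its values were seen and listed at 0 in BAT on day 0, did not meet the rule for satellite sequence.

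In all, 14 of the 79 loci matched themselves at a shift of 234 bases, the length of the mouse major satellite monomer, at 60% of positions or more. Only 21 of the 13561 tested loci long enough to be searched did so. Of the 14 loci, 13 lie at chr9:3000282-3038316 and *Gm10800* lies on chromosome 2. Their FPKM summed to 3.14, 9904 and 7139 in BAT and to 24151, 7000 and 593 in WAT, or 2.87% of the FPKM of WAT on day 0 and less than that in every other library. On day 4 they differed little between the depots, with a median BAT minus WAT of 0.52 and a range of -0.15 to 0.83. The way reads were shared among such copies is not given in the sources used here, so the loci are best read as 1 signal.

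A further 17 loci of the 79 shared at least 50% of their 25-base words with another locus of the class. *Gm17386* had 9.77, 97.5 and 55.4 in BAT and 175, 62.4 and 11.5 in WAT, with a difference in response of 6.2. *Gm17385* (1.76, 21.6 and 11.7 in BAT, 40.6, 11.3 and 1.98 in WAT), *Gm17316* and *Gm17555* had a similar pattern, with differences of 6.01, 5.83 and 5.78. In each of these named loci the lowest library was BAT day 0 or WAT day 6, and the highest was WAT day 0, as for the satellite sum. The other 48 loci, 21 of them protein-coding, shared less than that with the rest of the class. The share was 49.95% for *Gm17312* and 19.1% for *Gm10801*. Copies outside the class were not searched for.

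**Figure D3:**
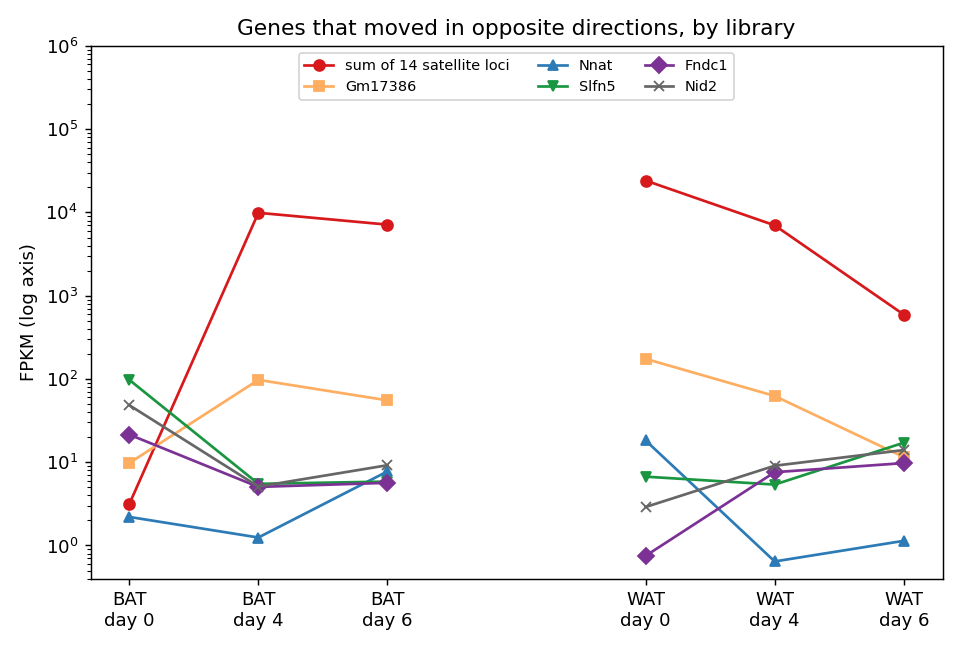
FPKM (log axis) in the 6 libraries for the sum of the 14 satellite loci and for 5 genes that moved in opposite directions, 1 library per point. Between days 0 and 6 the satellite sum goes up in BAT (3.14, then 7139) and down in WAT (24151, then 593), while *Slfn5*, *Fndc1* and *Nid2* are highest in BAT on day 0.

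Among genes of this class that met neither sequence rule, described after their values were seen, *Nnat* encodes neuronatin, an imprinted membrane protein. Its FPKM was 2.20, 1.25 and 7.75 in BAT and 18.2, 0.64 and 1.14 in WAT, a difference of 4.62. WAT on day 0 was the highest library and BAT on day 6 the next. *Stab1*, a scavenger receptor of endothelium and macrophages, had 0.34, 1.54 and 2.25 in BAT and 34.2, 4.05 and 7.67 in WAT (3.30), and stayed higher in WAT on each day. *Mylpf*, a myosin light chain of fast muscle, was low in all 6 libraries, with 0.93, 0.72 and 4.68 in BAT and 3.71, 1.95 and 0.27 in WAT (3.45). Of the 79 genes, 24 were listed at 0 in at least 1 of the 4 libraries.

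Of the 182 genes lower in BAT and higher in WAT, 140 were protein-coding, against 12551 of the 14119 genes tested (88.9%). Sequence shared between loci was searched for only among the genes higher in BAT and lower in WAT. *Slfn5*, an interferon-inducible member of the Schlafen family, led the rule. It had an FPKM of 97.6, 5.5 and 5.85 in BAT and 6.71, 5.39 and 17.2 in WAT, a difference in response of -5.08. Both depots held similar amounts on day 4, and the high library was BAT day 0.

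Other genes named by rule were also highest in BAT on day 0, a library that is part of the difference they were ranked on. *Nid2*, a nidogen of basement membranes, had 48.4, 5.10 and 9.20 in BAT and 2.90, 9.07 and 14 in WAT (-4.22). *Fndc1*, a protein with fibronectin type III domains, had 21.5, 5.05 and 5.66 in BAT and 0.75, 7.59 and 9.76 in WAT (-4.37). For both, BAT was far above WAT on day 0 and below it on days 4 and 6. *Pds5a*, a regulator of cohesin, had 19.9, 8.13 and 3.43 in BAT and 0.66, 4.45 and 6.07 in WAT (-4.33), and *Slc25a30*, a mitochondrial carrier, had 12.4, 1.53 and 0.85 in BAT and 0.14, 0.79 and 2.68 in WAT (-4.54). *Gm7292* (-4.80) and *Gm9853* (-4.42) were also named by rule.

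Other members were chosen after their values were seen. *Lum*, the collagen-binding proteoglycan lumican, had 14.2, 4.43 and 3.18 in BAT and 8.22, 25.5 and 30.6 in WAT (-3.63). Unlike *Nid2* it was only modestly apart on day 0, by 0.72 in log2, and BAT minus WAT was -2.29 on day 4 and -2.92 on day 6. *Zbp1*, a sensor of Z-form nucleic acid, had 18.0, 2.44 and 4.91 in BAT and 3.19, 2.99 and 16.8 in WAT (-3.77). *Irs2*, an adaptor of the insulin receptor, had 7.29, 3.46 and 1.43 in BAT and 0.57, 1.96 and 2.27 in WAT (-2.83). *Acly*, the citrate lyase that feeds fatty acid synthesis, was listed at 129, 0 and 0 in BAT and at 47.7, 0 and 277 in WAT, and no fold is given for a gene listed at 0 in 3 of 6 libraries.

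The median BAT minus WAT of the 182 genes was 2.25 on day 0, 0.33 on day 4 and -0.65 on day 6, and that of the 79 genes was -3.14, 0.35 and 1.62. Of the 182 genes, 52 were 2-fold apart in opposite directions on days 0 and 6, and 73 (40.1%) were apart on day 0 and within 0.5 on day 6. For the 79 genes these counts were 47 and 21 (26.6%).

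Mitochondrial genes stood among those higher in BAT alone. The class held 20 of 76 mitochondrial ribosomal proteins, 3 of 37 complex I subunits and 2 of 38 nuclear subunits of complexes II to V, against 2.59% of all genes. *Ndufb7*, a complex I subunit, had 43.2, 245 and 307 in BAT and 200, 291 and 226 in WAT (2.63), and *mt-Nd3*, a complex I subunit of the mitochondrial genome, had 482, 1101 and 3554 in BAT and 4043, 3768 and 2882 in WAT (3.37). *Mrpl11*, of the mitochondrial ribosome, had 13.3, 61.7 and 83.4 in BAT and 67.0, 72.6 and 68.3 in WAT (2.54). In each, BAT started far below WAT and ended slightly above it. *Supv3l1*, a mitochondrial RNA helicase, did likewise (6.79, 32.8 and 35.0 in BAT, 28.0, 26.6 and 23.1 in WAT, 2.48), as did *S100a13* (2.77) and *1810035L17Rik* (2.57).

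*Apod* and *Cish* differed from these in that BAT passed WAT by more than 2-fold on day 6. *Apod*, the lipid-binding apolipoprotein D, had 13.4, 55.3 and 123 in BAT and 41.3, 23.8 and 43.2 in WAT (3.04). *Cish*, an inhibitor of cytokine signalling through STAT5, had 1.33, 1.79 and 13.1 in BAT and 4.02, 2.79 and 3.89 in WAT (2.63), so its BAT value was raised on day 6 only.

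Genes lower in BAT alone made up 9.07% of all genes, and among them were 2 of 20 preadipocyte and stromal markers, 6 of 40 matrix genes and 3 of 22 collagens. *Cdh11*, the mesenchymal cadherin-11, had 95.2, 3.61 and 4.92 in BAT and 21.9, 7.26 and 15.7 in WAT (-3.57). *Adamts5*, an aggrecan-cleaving protease, had 111, 5.36 and 6.76 in BAT and 21.4, 6.32 and 16.1 in WAT (-3.47), and *Pdgfra*, a receptor that marks preadipocytes, had 92.8, 7.70 and 11.9 in BAT and 27.6, 11.4 and 28.6 in WAT (-2.91). All 3 were lower in WAT too on day 4, so for them the WAT value of day 6 had come back up.

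*Prg4*, the lubricating proteoglycan 4, had 70.8, 10.4 and 4.90 in BAT and 3.61, 6.01 and 2.77 in WAT (-3.32), and *Dpp4*, a surface peptidase, had 13, 0.00 and 0.06 in BAT and 0.56, 0.02 and 0.36 in WAT (-3.53). Both were within 0.71 in log2 of WAT on days 4 and 6. *Sned1*, a matrix protein, had 135, 10.7 and 7.53 in BAT and 21.5, 15.7 and 26.8 in WAT (-4.30). The other genes named by rule were *Apol7d* (-4.34), *Ston1* (-3.80) and *Zmiz1*, a transcriptional coactivator (-3.64). *Lox*, the enzyme that crosslinks collagen, had 886, 68.2 and 90.9 in BAT and 297, 109 and 216 in WAT (-2.81), and *Col3a1*, a fibrillar collagen, had 3376, 310 and 385 in BAT and 698, 587 and 779 in WAT (-3.29).

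Genes higher in WAT alone are by the rule at least 2-fold lower in WAT on day 0 than on day 6. Most of those named were also well below BAT on day 0. *Alcam*, an adhesion molecule, had 5.08, 10.4 and 7.03 in BAT and 0.45, 11.7 and 16.7 in WAT (-3.21), and *Vldlr*, a lipoprotein receptor, had 28.1, 49.2 and 24.9 in BAT and 3.22, 28.9 and 26.4 in WAT (-2.86). *Klf9*, a glucocorticoid-induced transcription factor, had 26.1, 28.2 and 18.2 in BAT and 5.52, 15.6 and 29.8 in WAT (-2.74). *Gm10240* (-4.19), *Nkiras2* (-2.83), *Nek7* (-2.75) and the interferon-induced GTPase *Gbp3* (-2.70) were likewise lowest in WAT on day 0 among the 4 libraries. *Pla1a*, a phospholipase, was the exception among the genes named, since the depots were alike on day 0 (12.8 in BAT, 9.73 in WAT) and apart on days 4 (8.30 and 25.2) and 6 (9.19 and 47.4).

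Genes lower in WAT alone are by the rule at least 2-fold higher in WAT on day 0 than on day 6. The depots were also 2-fold apart on day 0 for 376 of the 430. Those named were highest in WAT on day 0. *Ulk4*, a kinase-like protein, had 3.26, 4.12 and 4.64 in BAT and 30.5, 5.04 and 3.28 in WAT (3.28), and *Haus7*, a spindle protein of the augmin complex, had 17.8, 15.3 and 18.9 in BAT and 100.1, 16.1 and 20.6 in WAT (2.31). *Rpl21*, a ribosomal protein whose reads may be shared with processed copies, had 392, 292 and 396 in BAT and 2375, 480 and 511 in WAT (2.23). *Myl4* (2.47), *Sertad1* (2.28), *Cdkn3* (2.20) and *Gm10282* (2.20) had the same high library. *Arap1*, a regulator of Arf GTPases, was different in that WAT was below BAT by 1.12 on day 4 and 1.16 on day 6.

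Respiratory chain genes had a larger change in BAT than in WAT, from a lower level on day 0. All 37 complex I subunits were tested, and 34 had a difference in response of at least 1 (background 13.2%) and 0 of at most -1 (background 27.9%). Their median BAT change was 3.25 and their median WAT change 1.55. Relative to all genes the difference was 2.12, and 1.42 to 2.25 over the alternatives. BAT minus WAT was -1.38 on day 0, -0.01 on day 4 and 0.42 on day 6, so the depots were level on day 4. *Ndufa5* had 37.5, 478 and 566 in BAT and 258, 509 and 397 in WAT (3.26).

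The nuclear subunits of complexes II to V had 31 of 38 at 1 or more, with a median of 1.70, and *Atp5b*, the catalytic subunit of the ATP synthase, had 362, 4067 and 4090 in BAT and 1564, 4478 and 2987 in WAT (2.56). Mitochondrial ribosomal proteins had 48 of 76 at 1 or more (median 1.31), and the mitochondrial genome 8 of 13, with 1 at -1 or less (median 1.15). For the mitochondrial genome the median relative to all genes was 1.5 but 0.17 with day 4 in place of day 6, since all 13 genes were below WAT in BAT on day 4 (median -0.94). These genes are short, with median lengths of 983 bases for complex I, 978 for complexes II to V and 1300.5 for mitochondrial ribosomal proteins. Fatty acid oxidation, whose median length is 2270 bases, was near level on day 0 (-0.08) and higher in BAT on day 4 (0.43) and day 6 (0.59), with 21 of 24 and 23 of 24 genes above WAT. Of the 24, 9 had a difference of at least 1 and 2 of at most -1, against 13.2% and 27.9% of all genes. *Etfb*, an electron carrier of that pathway, had 42.1, 966 and 1186 in BAT and 209, 1045 and 691 in WAT (3.06). Unlike the list median, its BAT minus WAT was -2.29 on day 0 and -0.11 on day 4.

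**Figure D4:**
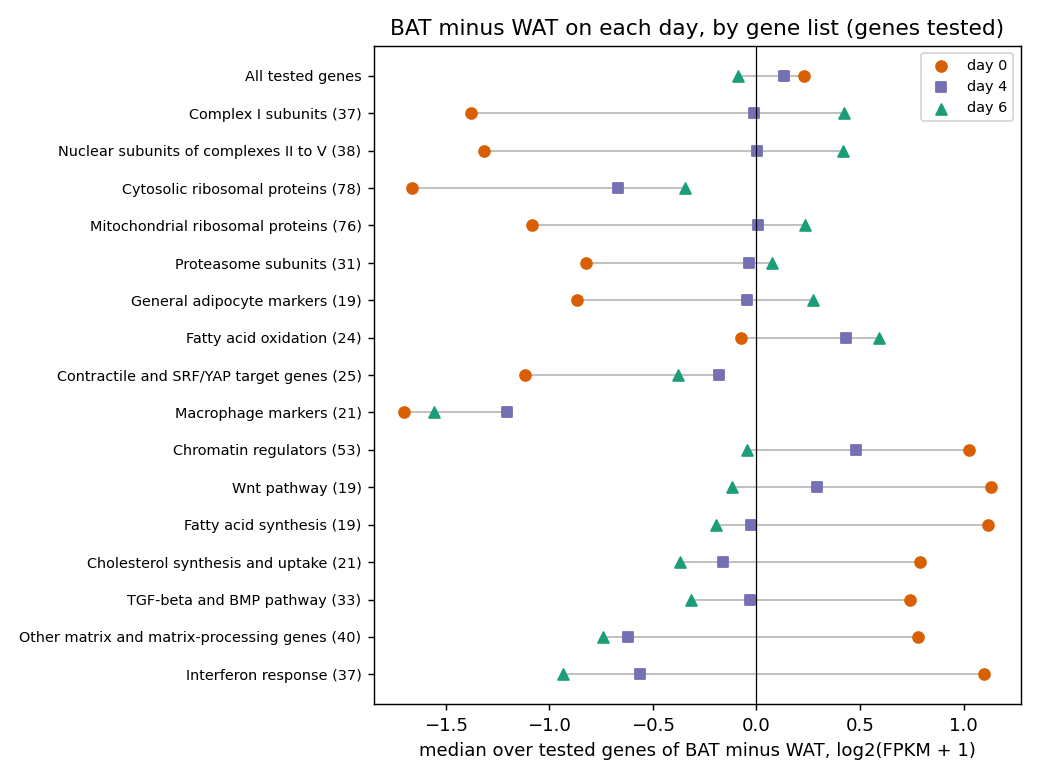
Median BAT minus WAT in log2(FPKM + 1) over the tested genes of each list (number in brackets) on days 0, 4 and 6. Complex I goes from -1.38 to 0.42 and the interferon response from 1.10 to -0.93, while macrophage markers stay between -1.70 and -1.20.

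Cytosolic ribosomal proteins moved little in BAT (median 0.29) and were lower on day 6 in WAT (-1.03). Of 78 genes, 61 had a difference of at least 1, and relative to all genes the median was 1.68 (0.83 to 1.79 over the alternatives). All 78 were lower in BAT than in WAT on day 0 and again on day 4, with a median BAT minus WAT of -1.66 and -0.67. *Rplp1* had 2883, 1796 and 2651 in BAT and 10666, 3494 and 3227 in WAT (1.6). Proteasome subunits, which degrade tagged proteins, had 13 of 31 at 1 or more and 0 at -1 or less (median 0.95).

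Matrix genes were lower on day 6 in both depots, by more in BAT. Of 40 matrix and matrix-processing genes other than collagens, 27 had a difference of at most -1 and 0 of at least 1, with a median of -1.64, a BAT change of -2.68 and a WAT change of -0.89. They were higher in BAT on day 0 (0.78) and lower on day 4 (-0.62) and day 6 (-0.74), when 37 of 40 were below WAT. *Mmp14*, a membrane-bound collagenase, had 541, 13.3 and 18.5 in BAT and 159, 24.7 and 57.8 in WAT (-3.35), and *Fn1*, fibronectin, had 1407, 66.9 and 137 in BAT and 357, 120 and 242 in WAT (-2.80). For collagens, 9 of 22 were at most -1 (median -0.69), but relative to all genes the median changed sign among the alternatives (-0.61 to 0.30).

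Signalling and lipid synthesis genes leaned the same way. The TGF-beta and BMP pathway had 19 of 33 at most -1 and 1 at least 1 (median -1.35). *Bmpr1a*, a BMP receptor, had 29.2, 8.37 and 9.35 in BAT and 8.40, 7.32 and 10.1 in WAT (-1.79), and *Fstl3*, which binds activin, moved in opposite directions, with 7.21, 4.20 and 1.70 in BAT and 1.04, 1.75 and 3.27 in WAT (-2.67). The Wnt pathway had 10 of 19 at most -1 (median -1.08), insulin and IGF signalling 10 of 20 (-0.93) and chromatin regulators 26 of 53 (-0.99). Of all genes, 27.9% were at most -1. Median lengths were 3732 bases for TGF-beta and BMP, 4260 for Wnt and 4040.5 for insulin and IGF signalling. The bins of protein-coding genes with median lengths of 3779 and 4415 bases had median differences of -0.59 and -0.76. Chromatin regulators have a median length of 6697 bases, and relative to all genes their median ranged from -0.89 to -0.05 over the alternatives.

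Fatty acid synthesis genes were higher on day 6 in both depots, more so in WAT. Their median change was 1.38 in BAT and 2.64 in WAT, and 12 of 19 had a difference of at most -1. *Acaca*, the first committed enzyme, had 25.9, 87.9 and 69.1 in BAT and 7.50, 89.4 and 67.6 in WAT (-1.63), with the depots level on days 4 and 6. *Scd2*, a fatty acid desaturase, had 301, 610 and 431 in BAT and 72.5, 526 and 521 in WAT (-2.31). Cholesterol synthesis and uptake genes instead had a negative median change in both depots, -1.56 in BAT and -0.91 in WAT. In BAT 16 of 21 were at least 2-fold lower on day 6 and 1 higher, and in WAT 10 and 3. The difference in response was at most -1 for 13 of 21 (median -1.25).

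General adipocyte and central metabolism genes differed less than the complex I subunits. Relative to all genes the median was 1.07 for adipocyte markers, 0.93 for the TCA cycle and 0.80 for glycolysis, against 2.12 for complex I. Of 19 adipocyte markers 8 had a difference of at least 1 and 1 of at most -1, with a median BAT change of 4.84 and WAT change of 4.30. *Slc2a4*, the insulin-regulated glucose transporter, had 0.33, 226 and 186 in BAT and 2.57, 185 and 152 in WAT (1.71). The TCA cycle had 6 of 19 at 1 or more (median 0.58) and glycolysis 4 of 19 (0.45), and 18 of the 19 TCA genes were above WAT in BAT on days 4 and 6. *Mdh2*, mitochondrial malate dehydrogenase, had 111, 878 and 809 in BAT and 261, 844 and 555 in WAT (1.77). *Pfkfb3*, which makes the activator of phosphofructokinase, went the other way, with 7.20, 254 and 68.4 in BAT and 3.29, 139 and 142 in WAT (-1.98).

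Growth and cytoskeletal genes were lower on day 6 in both depots. Cell cycle genes had 6 of 47 at 1 or more and 3 at -1 or less, against 13.2% and 27.9% of all genes, and *Birc5*, a mitotic survivin, had 10.9, 3.19 and 2.11 in BAT and 50.8, 6.28 and 2.44 in WAT (1.98). Contractile and SRF/YAP target genes had 10 of 25 at 1 or more and 5 at -1 or less. Within that list *Ankrd1*, a YAP target, had 3.85, 0.93 and 0.91 in BAT and 10.6, 0.06 and 0.26 in WAT (1.86), and *Vcl*, the adhesion protein vinculin, moved in opposite directions, with 30.5, 4.68 and 8.07 in BAT and 1.92, 2.25 and 7.98 in WAT (-3.41). *Ankrd1* was highest in WAT on day 0 and *Vcl* in BAT on day 0.

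Immune and secreted genes other than the interferon list were mixed. Of all genes, 27.9% were at -1 or less and 13.2% at 1 or more. MHC class I genes had 6 of 15 at most -1 and 0 at least 1, and all 15 were below WAT in BAT on day 6. Acute phase and complement genes had 10 of 23 at most -1 and 2 at least 1. *C3*, the central complement component, had 83.2, 124 and 217 in BAT and 34.2, 269 and 386 in WAT (-2.09), whereas *Itih4*, an acute phase protein, had 1.16, 1.32 and 69.0 in BAT and 3.92, 0.08 and 6.43 in WAT (4.43) and so was raised in BAT on day 6. Chemokines had 9 of 26 at most -1, among them *Ccl11*, the eosinophil attractant eotaxin, with 25, 1.37 and 2.35 in BAT and 26.4, 6.55 and 13.3 in WAT (-2.02). *Ccl11* was level between the depots on day 0, so its difference lay in the later days.

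Stress and organelle genes are read against the 27.9% of all genes at -1 or less and the 13.2% at 1 or more. Lysosome genes had 10 of 29 at most -1 and 0 at least 1, and *Ctsl*, the protease cathepsin L, had 2064, 376 and 463 in BAT and 572, 393 and 645 in WAT (-2.33). Circadian genes had 8 of 17 at most -1, ER stress genes 6 of 31 and adrenergic genes 8 of 24. *Dnajb9*, an ER chaperone, had 20.7, 35.5 and 39.9 in BAT and 5.43, 30.8 and 59.4 in WAT (-2.32). Antioxidant genes had 7 of 31 at 1 or more and 4 at -1 or less, and *Prdx2*, a peroxide-reducing enzyme, had 115, 223 and 281 in BAT and 452, 267 and 242 in WAT (2.18). Immediate early genes had 6 of 21 at 1 or more and 5 at -1 or less, and all 21 were below WAT in BAT on day 6.

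Interferon response genes formed the list with the lowest median among the 38 lists with at least 10 tested genes. The median difference in response of the 37 tested, of 40 on the list, was -2.02, with a BAT change of -0.99 and a WAT change of 1.21. In 30 of them the difference was at most -1, in 0 it was at least 1, and 9 moved in opposite directions (1.29% of all genes did). Relative to all genes the median was -1.67, and -1.96 to -0.93 over the alternatives. The count of 9 was 5 with median-ratio scaling, 1 with a pseudocount of 5 and 14 with TPM.

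*Oasl2*, of the oligoadenylate synthetase family, had 23.1, 2.29 and 3.52 in BAT and 6.63, 5.39 and 17.8 in WAT (-3.71). *Ifit1*, which binds foreign RNA caps, had 11.6, 1.24 and 4.81 in BAT and 2.03, 2.30 and 15.3 in WAT (-3.55). BAT was the higher depot on day 0 and the lower on days 4 and 6 in both. *Ifit3* had 22.4, 1.51 and 10.4 in BAT and 15, 7.06 and 45.2 in WAT (-2.57), and was within 0.55 of WAT on day 0, so its difference came mainly from day 6.

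*Ddx58*, the RNA sensor RIG-I, had 16.9, 2.80 and 5.87 in BAT and 3.0, 4.62 and 8.14 in WAT (-2.57). *Ifi204*, a DNA sensor, had 48.8, 12.4 and 16.8 in BAT and 19.4, 26.1 and 46.4 in WAT (-2.70). The remaining members of the opposite class were *Ifi44*, listed at 0 in WAT on day 0, *Oas1b* (-2.64), *Usp18*, which removes ISG15 from proteins (-2.39), and *Mx2* (-2.23). *Stat2*, part of the factor that binds the response element, was lower in BAT alone (36.1, 4.19 and 6.07 in BAT, 7.22, 5.36 and 9.08 in WAT, -2.69), and *Irf7* was higher in WAT alone (13.9, 7.48 and 11.8 in BAT, 4.84, 13.7 and 22 in WAT, -2.19).

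BAT and WAT were apart on the later days as well. BAT was above WAT for 32 of 37 genes on day 0, and below it for 36 of 37 on day 4 and 36 of 37 on day 6, the exceptions being *Cxcl10* on day 4 and *Ifi27l2a* on day 6. The medians of BAT minus WAT were 1.10, -0.56 and -0.93, against 0.23, 0.13 and -0.09 for all genes tested. The day 4 libraries had no part in the class rule, but the list was drawn up with earlier results of these data known. No gene was tested since there is 1 library per day.

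**Figure D5:**
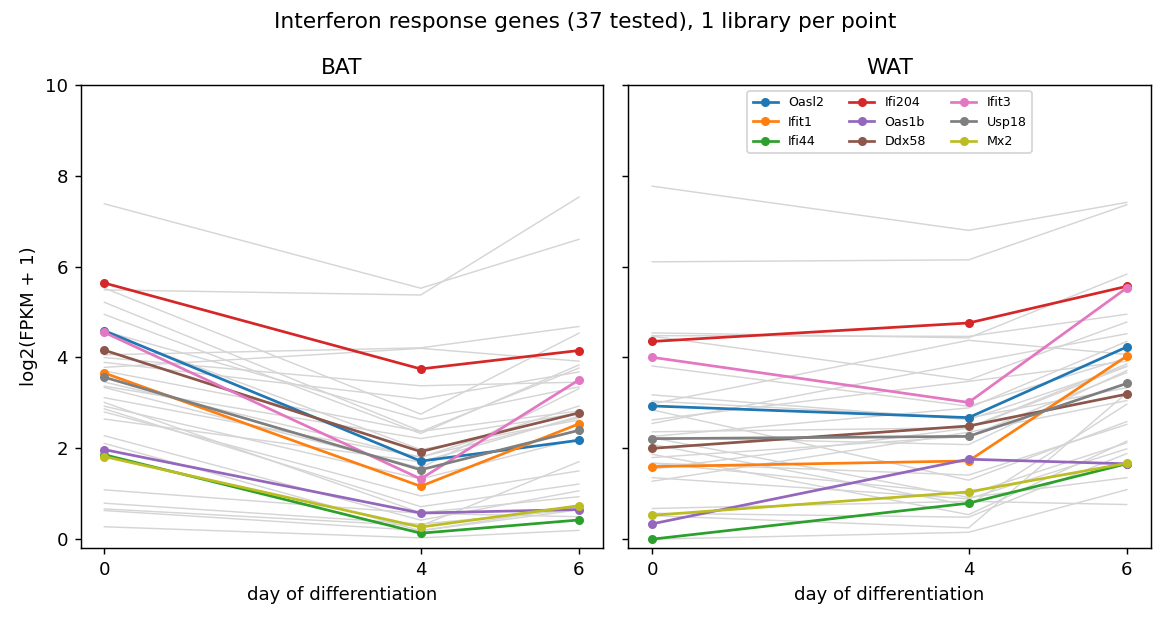
Level in log2(FPKM + 1) of the 37 interferon response genes tested (grey) in BAT and WAT on days 0, 4 and 6, with the 9 that moved in opposite directions in colour. In BAT these 9 are highest on day 0 and lowest on day 4, and in WAT each is higher on day 6 than on day 0.

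The response element shown above for *Ifit1*, *Ifit3* and *Ddx58* was found in 15 of the 25 interferon promoters that could be matched (60%), against 341 of 9054 promoters of tested genes (3.77%) and 1079 of all 27025 promoters (3.99%). Among the genes lower in BAT and higher in WAT it was in 8 of 103 (7.77%), and among those higher in BAT and lower in WAT in 0 of 14. The share was 6.40% among genes higher in BAT alone and 6.43% among genes higher in WAT alone, against 3.30% and 4.10% among genes lower in BAT or in WAT alone. A match is a description of these windows only.

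Macrophage markers as a list were lower in BAT on days 0, 4 and 6. On day 0, 18 of the 21 genes tested were lower in BAT and 3 higher. Of the 21, 4 had a difference of at most -1 and 1 of at least 1, against 27.9% and 13.2% of all genes. *Csf1r* had 1.32, 1.23 and 0.67 in BAT and 1.66, 2.53 and 3.91 in WAT (-1.36). Like *Ptprc* (-1.05), which was near 0 in both depots on day 0, it was near level on day 0 and lower in BAT on day 6. Over the list, with 21 of 23 measured genes tested, the median BAT minus WAT was -1.70, -1.20 and -1.56 on days 0, 4 and 6 and the median difference in response -0.15. The summed FPKM of the list was 209.6, 396 and 530 in BAT and 729, 841 and 1327 in WAT. *Lyz2*, lysozyme, had 16.7, 38.1 and 54.4 in BAT and 65.0, 108 and 193 in WAT, and *Tyrobp*, an adaptor of myeloid receptors, was listed at 0 in BAT on day 0 and had 9.33 to 29.0 in WAT. Of the 23 genes, 7 were at 0 in BAT on day 0, 2 in BAT on day 6 and 0 in the other 4 libraries. Their part in the interferon values was not tested. Markers of lymphocytes summed to 0.27 to 1.78 and erythroid markers to 0 to 3.52 in the 6 libraries.

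The summed levels of endothelial, skeletal muscle, mesothelial and epithelial markers were highest in WAT on day 0. On that day the endothelial list summed to 36.2 (BAT) and 86.0 (WAT), against 19.3 to 27.3 later. *Pecam1* had 1.09, 1.18 and 1.73 in BAT and 4.12, 1.13 and 1.71 in WAT (1.30). The endothelial receptor *Tek* went the other way, with 8.15, 0.26 and 0.61 in BAT and 2.15, 0.24 and 1.65 in WAT (-2.26). Of the 12 endothelial genes tested, 8 were lower and 4 higher in BAT than in WAT on day 0. Skeletal muscle markers summed to 8.45 to 36.6, the next highest being 31.9 in BAT on day 6, with 5 to 13 of the 26 genes at 0, and mesothelial and epithelial markers to at most 13.7 and 16.4. Schwann and neural markers summed to 76.5 to 199 and mural markers to 14.2 to 27.4, with neither higher in WAT than in BAT by 2-fold on any day. *Nnat*, *Stab1* and the endothelial sum were all highest in WAT on day 0, and the part of other cells in these values was not tested.

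Of the 21 brown fat genes tested, 10 were higher and 11 lower in BAT than in WAT on day 0, against 17 and 4 on day 6. *Zic1*, a developmental factor of brown fat precursors, had 14.5, 3.27 and 2.39 in BAT and 0.09, 0.02 and 0.00 in WAT (-2.07), so it was lower in BAT alone yet higher in BAT on each day. *Cidea* had 0.00, 284 and 115 in BAT and 2.43, 34.1 and 9.84 in WAT. Of the list, 8 had a difference of at least 1 and 2 of at most -1, against 13.2% and 27.9% of all genes. Relative to all genes their median was 0.39 (0.24 to 1.15 over the alternatives).

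Of 28 Hox genes tested, which set position along the body axis, 8 had a difference of at most -1 and 0 of at least 1 (median -0.64), against 27.9% and 13.2% of all genes. *Hoxb3* had 6.67, 0.58 and 0.26 in BAT and 0.41, 0.05 and 0.26 in WAT (-2.45), and *Hoxd3* had 8.09, 2.04 and 0.67 in BAT and 0.98, 1.30 and 0.96 in WAT (-2.43). Both were lower in BAT alone. *Hoxa9* was the member higher in WAT alone (0.00, 0.32 and 0.11 in BAT, 3.72, 13 and 11.1 in WAT). *Hoxc10* (0.00, 0.09 and 0.00 in BAT, 14.9, 20.6 and 26.2 in WAT) and *Hoxa5* (7.17, 14.3 and 11.7 in BAT, 1.86, 2.41 and 1.95 in WAT, 0.59) were apart on all days and moved by less than 2-fold in either depot.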

How the data were processed

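RNA-seq of 6 libraries was used, of which 4 (days 0 and 6) entered the comparison and the day 4 pair was set beside it. The authors aligned paired-end reads to mm9 with TopHat 2.0.11 and quantified genes with Cufflinks 2.1.1. They deposited FPKM, and no counts were used here. Columns named for the subcutaneous depot were taken as WAT. Where a symbol was repeated, the entry of highest mean was kept. Gene types and the longest transcript came from GENCODE M1 (lengths for 99.7% of genes), promoters from RefSeq for 9054 tested symbols. Low FPKM values come in steps of 1 fragment, and the step size gave each library's depth; 72.8% to 81.5% of the values used were then within 0.1 of whole fragments. Named were the 8 protein-coding genes of each class with the largest difference in response among those with an FPKM of at least 10 in 1 of the 4 libraries and none at 0, list members with a difference of at least 1 in size, and defining markers. The members, the 46 gene lists and the rules were chosen with earlier results of these data known. With 1 library per condition nothing was tested, and 13 other settings and 1 added after the data were seen (each depot centred on its median) were run. Scripts were tested on simulated data. The tools were pysam 0.24.0, statsmodels 0.14.6, scipy 1.17.1, pandas 2.3.3, numpy 2.4.6 and matplotlib 3.10.9 under Python 3.11.15. Some genes that these rules name are not reported here. Methylation data were not analysed here.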

Additional observations from a re-analysis of the deposited data

Results flagged for a closer look

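With 1 library per depot and day, the 79 genes higher in BAT and lower in WAT and the 182 genes lower in BAT and higher in WAT stand out because the day 6 library lay on one side of the day 0 library in one depot and on the opposite side in the other. The difference was not tested for any of them, since no condition has a replicate. Values are the difference in response in log2(FPKM + 1). Among loci of repeated sequence it was 15.89 for *Gm10800*, 15.38 for *Gm16869*, 13.93 for *Gm10718*, 13.13 for *Gm10721*, 11.59 for *Gm11167*, 6.2 for *Gm17386*, 6.01 for *Gm17385*, 5.83 for *Gm17316* and 5.78 for *Gm17555*. Other genes higher in BAT and lower in WAT met neither sequence rule. For these it was 13.57 for *Gm10801*, 4.62 for *Nnat*, 3.45 for *Mylpf*, 3.30 for *Stab1* and 3.30 for *Ucp1*. *Gm10801* and *Ucp1* are listed at 0 in BAT on day 0.

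Among genes lower in BAT and higher in WAT it was -5.08 for *Slfn5*, -4.80 for *Gm7292*, -4.54 for *Slc25a30*, -4.42 for *Gm9853*, -4.37 for *Fndc1*, -4.33 for *Pds5a*, -4.22 for *Nid2*, -3.77 for *Zbp1*, -3.63 for *Lum* and -2.83 for *Irs2*. *Acly* gave -9.54 only because it is listed at 0 in BAT on day 6. Among interferon response genes it was -3.71 for *Oasl2*, -3.55 for *Ifit1*, -3.10 for *Ifi44*, -2.70 for *Ifi204*, -2.64 for *Oas1b*, -2.57 for *Ddx58*, -2.57 for *Ifit3*, -2.39 for *Usp18* and -2.23 for *Mx2*, and *Ifi44* is listed at 0 in WAT on day 0.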

How the results depend on the processing

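Counts are given as higher in BAT and lower in WAT, lower in BAT and higher in WAT, BAT alone and WAT alone, where the setting moved them by over 1.5 times from 79, 182, 1645 and 938. A pseudocount of 0.1 gave 174 and 492 in opposite directions, and a pseudocount of 5 gave 40, 25, 819 and 405. An FPKM of at least 5 gave 613 in WAT alone. Median-ratio scaling gave 143 and 98 in opposite directions, centring each depot on its median (added after the data were seen) gave 130 and 95, and TPM gave 486 lower in BAT and higher in WAT and 2648 in BAT alone. A 1.5-fold rule gave 276 and 730, and a 4-fold rule 28, 8, 307 and 144. Protein-coding genes alone gave 43 higher in BAT and lower in WAT. Day 4 in place of day 6, with the same day 0 libraries, gave 50 lower in BAT and higher in WAT and 1095 in BAT alone. Members changed more than some counts. With TPM the WAT alone count stayed at 938, but 201 of 508 higher and 207 of 430 lower genes were kept. With day 4, 37 of 79 and 28 of 182 genes kept their opposite class. Kept higher or lower were 143 of 365 and 454 of 1280 in BAT alone, and 96 of 508 and 233 of 430 in WAT alone. The cause of these shifts was not tested beyond what each setting does by construction. Of the genes named, 1 reversed, *Tyrobp*, with a difference in response of -0.0091 at a pseudocount of 5 against 1.42. Relative to all genes, 33 of 38 list medians kept their sign in all 14 alternatives, and those of chemokines, collagens, ER stress, macrophage and splicing genes did not. No paired analysis was possible because the labels give 1 library per condition and no shared replicate numbers, and for the same reason no library could be left out. Low genes are limited by depth, least well measured in WAT on day 0.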
